A study of Mus musculus with 9 samples.

Results

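The genes described here are 45 genes of the cell cycle and of DNA replication, read in SP4 (CD4 single-positive) thymocytes that were sorted by a reporter of T cell receptor signalling. They were taken by gene symbol, all 45 of them present among the 41978 genes of the deposited table, and they comprised 13 regulators of G1, 15 genes of S phase and 17 genes of mitosis. All 45 are protein-coding, and all 45 passed the filter on low values, set at 1 TPM (a transcript abundance scaled to the library) in 3 or more of the 9 samples.

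The samples were bulk RNA-seq libraries of thymus cells from Nur77-eGFP BAC Tg mice, which carry a bacterial artificial chromosome that drives green fluorescent protein from the regulatory sequence of Nr4a1, an immediate early gene of antigen receptor signalling. All 3 groups carried this transgene, and the labels give no treatment. Semi-mature SP4 cells that were live, CD25-, CD69+, CD24+, CD4+ and CD8- were sorted from the low, middle and high parts of one GFP distribution (GFPlo, GFPmed and GFPhi), 3 samples per group. The study's text gives the CD24 gate as low in one place and as high in another, and it does not say whether samples with the same replicate number came from the same mice. p-values therefore measure the spread between these samples. The age of the mice of each group is not given in the labels. In bulk RNA, more cells in cycle and more RNA per cycling cell cannot be told apart.

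A cell commits to division in G1, when cyclin D with Cdk4 or Cdk6 and then cyclin E with Cdk2 phosphorylate the retinoblastoma protein Rb1 and release the E2F factors. E2F factors then drive genes that load helicases on replication origins, make nucleotides and build replication forks, and a later wave of genes builds the mitotic kinases, the spindle and the checkpoint that holds anaphase. In the thymus, cells divide mainly before the double-positive stage, and SP thymocytes are for the most part out of cycle until late in their maturation.

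Reads on genes ran from 7465552 to 14943774 per sample. These PCR reads had no molecular identifiers and so carry more error than counting alone. The reporter gene followed its label: Nr4a1 TPM was between 187 and 251 in GFPlo, 351 and 406 in GFPmed, and 767 and 917 in GFPhi. Of 11 genes that define SP4 cells all 11 were above the filter, Cd5 rose and Cd69 and Lef1 fell from GFPlo to GFPhi. Of the marker lists for other cells, 6 of 7 Treg (regulatory T cell) genes rose, with a summed TPM of 257 to 285 in GFPlo, 562 to 696 in GFPmed and 1468 to 1590 in GFPhi, and none of the 7 was at 0. The study reports that Ikzf2 and Tnfrsf4 of this list also rise with self-antigen in thymocytes that have almost no Foxp3 RNA. Whether the rise of this list came from Treg cells was not tested. Of the CD8 and double-positive list 3 of 8 genes tested fell and 0 rose, with a summed TPM of 69.8 to 70.9 in GFPlo, 63.6 to 70.0 in GFPmed and 43.2 to 59.6 in GFPhi. Epcam rose among 5 epithelial and stromal genes tested, and 0 genes of the B cell, myeloid, natural killer and erythroid lists passed, with 0, 1, 1 and 1 of them higher and 1, 0, 0 and 0 lower at an unadjusted limma p under 0.05. The part of these cells in the results that follow was not tested.

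Most of the 45 genes were expressed at a higher level in cells with more GFP, with the largest median change in the mitotic genes and the smallest in the G1 regulators. Between GFPhi and GFPlo, 28 of 45 genes (62.2%) rose and 0 fell, where "rose" and "fell" stand for a limma p that, adjusted by Benjamini-Hochberg over the 30693 genes tested, did not exceed 0.05. The background was 2.38% of all genes tested higher and 1.51% lower. With the further limit of a 2-fold change (a log2 fold change of 1 or more in size, a DEG), 21 genes were higher and 0 lower, against 1.26% and 0.404% of all genes. The median log2 fold change was 0.92 over the 45 genes and -0.09 over all genes tested, on the scale of log2(TPM + 1), which understates the change of low genes. At an unadjusted p under 0.05, 38 of the 45 genes were higher and 1, Cdk6, was lower, against 6.63% and 7.19% of all genes.

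**Figure D1:**
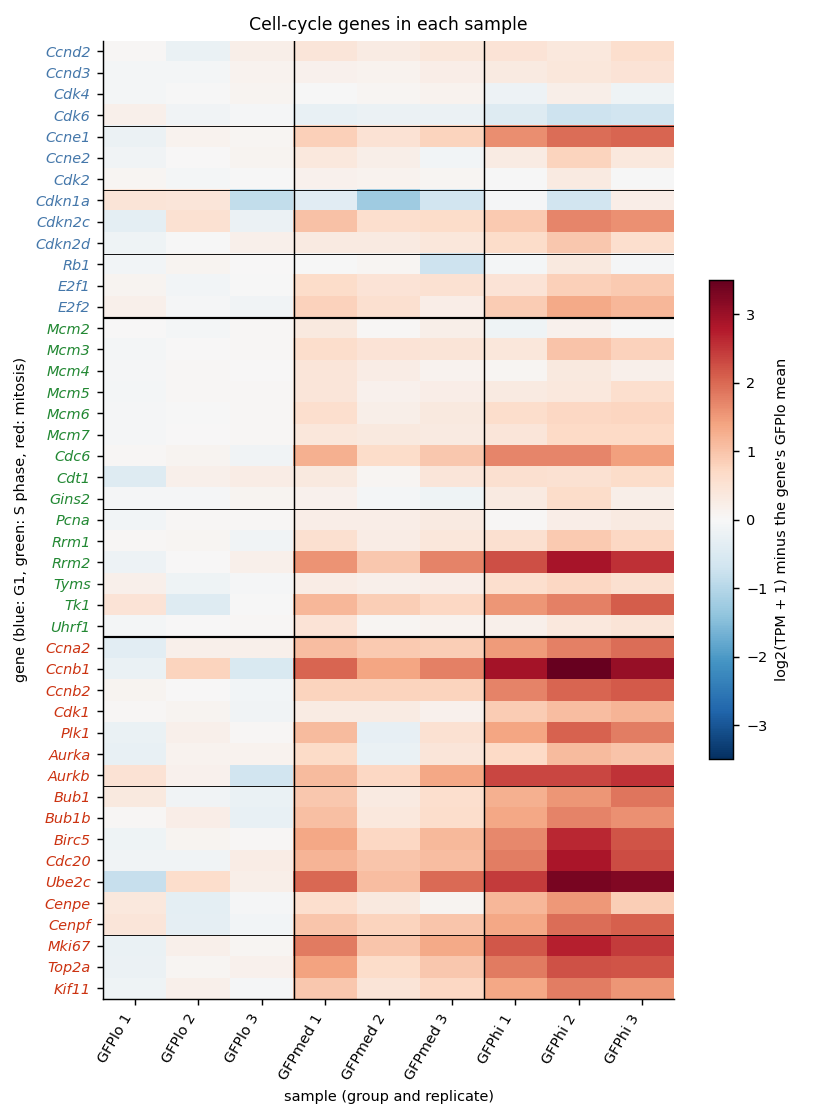
Heat map of the 45 genes (rows, ordered by role, with blue names for G1, green for S phase and red for mitosis) in the 9 samples (columns), coloured by log2(TPM + 1) minus the mean of the 3 GFPlo samples. The red block darkens from GFPmed to GFPhi in the 17 mitotic genes and in Ccne1, Cdc6, Rrm2 and Tk1, while Cdk6 turns blue and Cdk4, Cdk2, Rb1 and Mcm2 stay near white in GFPhi.

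By phase, 5 of 13 G1 regulators rose between GFPlo and GFPhi, with a median log2 fold change of 0.48. Of the S-phase genes 8 of 15 rose, with a median of 0.60. Of the mitotic genes 15 of 17 rose, all 15 as DEG, with a median of 1.80. Summed over each list, RPM (reads scaled to the library total) of the mitotic genes were 149.5, 169.1 and 155.4 in GFPlo, 367.7, 245.3 and 304.7 in GFPmed, and 550.8, 716.3 and 688.7 in GFPhi. That sum was 4.13 times as high in GFPhi as in GFPlo, and the 3 groups did not overlap. The sum of the S-phase genes went from 922 to 955 RPM in GFPlo to 1284 to 1436 RPM in GFPhi, a ratio of 1.47, and that of the G1 regulators from 1440 to 1642 RPM to 1907 to 1978 RPM, a ratio of 1.27. The lists are described here by counts and medians and the differences between phases were not tested.

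**Figure D2:**
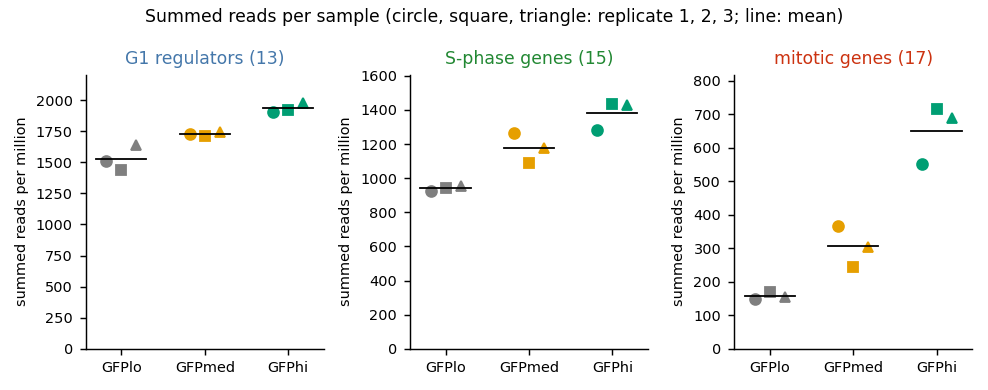
Summed RPM (vertical axes, from 0) of the 13 G1 regulators, 15 S-phase genes and 17 mitotic genes in each sample. Circles, squares and triangles are replicates 1, 2 and 3 and lines are group means. The mitotic sum rises from 149.5 to 169.1 RPM in GFPlo to 550.8 to 716.3 RPM in GFPhi, and the G1 sum from 1440 to 1642 RPM to 1907 to 1978 RPM.

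Levels of different genes can be compared only per exonic length, since in all 45 genes the deposited TPM had been divided by the average length from transcript start to end, with introns counted. The exonic length joins the exons of all annotated transcripts of a gene, so genes with long or many annotated transcripts can read lower. On that scale the 4 most abundant genes were the same in GFPlo and in GFPhi and all belonged to G1. Cdk4 stood at 79.3 ± 4.15 (SD, n = 3) RPM per exonic kilobase in GFPlo, followed by Ccnd2 at 55.4 ± 7.89, Cdkn2d at 38.9 ± 4.43 and Ccnd3 at 36.1 ± 2.61, of which the last pair overlapped within their SD. The lowest means in GFPlo were those of 2 mitotic genes: Cenpf stood at 0.276 ± 0.121 and Ccnb1 at 0.454 ± 0.33 RPM per exonic kilobase. Both overlapped Cdkn1a of G1, at 0.629 ± 0.377, within their SD. As a measure of background, 1403 olfactory and vomeronasal receptor genes, which thymocytes are not known to use, were read on the same scale. Between 11 and 18 of the 45 genes lay at or below the 90th percentile of these receptor genes in a GFPlo sample, 4 to 5 in a GFPmed sample and 1 to 2 in a GFPhi sample. In all 3 GFPlo samples 10 genes lay there: Cdkn1a of G1, Cdc6 and Tk1 of S phase, and Ccnb1, Aurkb, Bub1, Ube2c, Cenpe, Cenpf and Mki67 of mitosis. The fold changes of these 10 genes are measured from GFPlo levels near that background on this scale. The length enters the list: Tk1, with 5198 exonic bases, had 26 to 44 reads in the GFPlo samples. Ccnb2, with 1531 exonic bases, had 29 to 35 reads and is not among the 10.

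Among the D cyclins and their kinases, which open G1, 1 of 4 genes rose between GFPlo and GFPhi and 0 fell. In each list of TPM that follows, the 3 values of a group are replicates 1, 2 and 3. Ccnd3, the cyclin D that thymocytes need to expand, had a TPM of 33.7, 33.7 and 38.4 in GFPlo, 39.4, 38.1 and 41.9 in GFPmed and 44.3, 46.6 and 49.3 in GFPhi. GFPhi lay above both other groups without overlap, and the rise was small, with a log2 fold change of 0.40 ± 0.09 (SE, adjusted p = 0.0482). It did not hold at the threshold when any 1 of the 9 samples was left out, with adjusted p from 0.0606 to 0.173, nor with median-of-ratios scaling of the TPM (log2 fold change 0.48, adjusted p = 0.42). Cdk6, a cyclin D kinase, was the one gene of the 45 whose groups were ordered downward: its TPM was 6.84, 5.40 and 5.81 in GFPlo, 4.79, 5.09 and 5.12 in GFPmed and 4.14, 3.20 and 3.40 in GFPhi. The limma log2 fold change was -0.61 ± 0.18 (SE) with an adjusted p of 0.136, so it did not pass, and limma-voom on reads gave -0.72 with an adjusted p of 0.00191 on library totals, and -0.64 with an adjusted p of 0.0554 on size factors. Cdk4, its paralog, was level: its TPM was 537, 565 and 601 in GFPlo, 558, 596 and 618 in GFPmed and 497, 656 and 515 in GFPhi, with a 95% interval of -0.29 to 0.21 for the log2 difference between GFPhi and GFPlo, and its sign depended on the scaling, being -0.04 as deposited and 0.05 after median-of-ratios scaling. Part of the exons of Cdk4 (19.7%) is shared with Tspan31 on the other strand, and the library kit does not keep strand. Ccnd2, the other abundant D cyclin, had a mean TPM of 420 ± 60.9 (SD, n = 3) in GFPlo and 582 ± 44.4 in GFPhi, an adjusted p of 0.0587. Ccnd2 passed in 5 of 20 alternatives. Among these were the fit without GFPlo replicate 3 (adjusted p = 0.0409), the replicate number as a block (0.0296) and limma-voom on library totals (0.000798) and on size factors (0.0414). It did not pass with median-of-ratios scaling (adjusted p = 0.26), with quantile normalization (0.141) or with only the 2 groups compared (0.172). Of the 9 fits with a sample left out, it passed in 1, with adjusted p up to 0.19.

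Cyclin E, which with Cdk2 carries the cell over the G1 to S boundary, gave the largest log2 fold change of the 13 G1 regulators, in Ccne1. Ccne1 TPM was 6.57, 8.55 and 8.07 in GFPlo, 14.6, 11.4 and 14 in GFPmed and 25.9, 33 and 34.5 in GFPhi. The 3 groups were apart in every sample, and GFPhi was 4.03 times GFPlo in mean TPM, with a log2 fold change of 1.88 ± 0.16 (SE, adjusted p = 0.00093). It was also higher in GFPhi than in GFPmed, by 1.16 ± 0.16 (SE, adjusted p = 0.0158). Cdk2, the partner kinase, had a TPM of 77.3, 70.8 and 73.3 in GFPlo, 82.5, 79.8 and 76.8 in GFPmed and 72.6, 91.7 and 72.5 in GFPhi, and its groups overlapped, with a 95% interval of -0.14 to 0.32 for the log2 difference. Without GFPhi replicate 2 that difference changed sign, to -0.02. Ccne2 had a log2 difference of 0.48 (95% interval 0.07 to 0.90, adjusted p = 0.261), and 17.4% of its exonic bases are shared with Ints8.

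**Figure D3:**
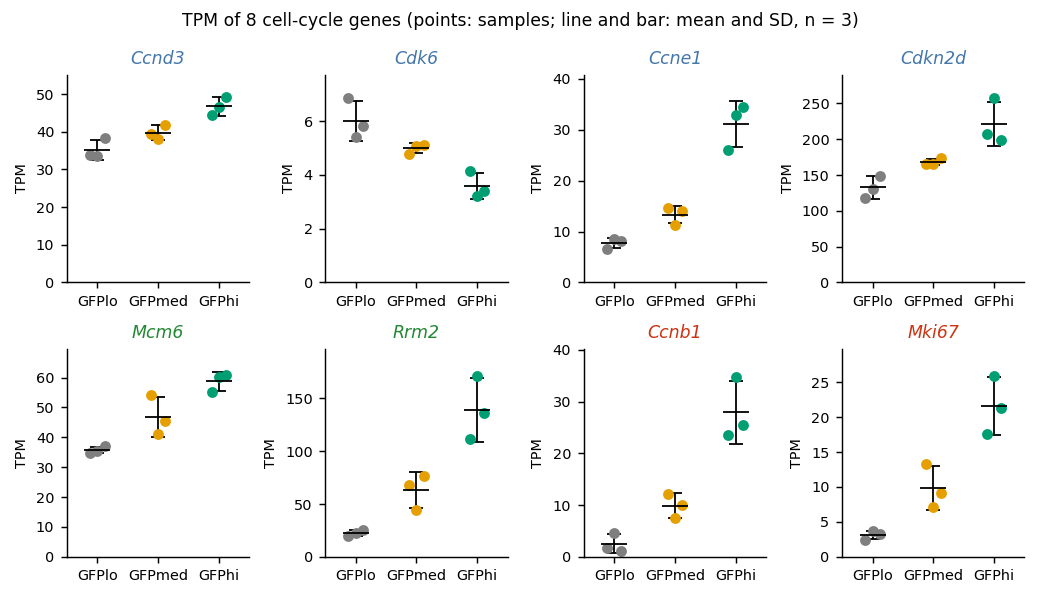
TPM (vertical axes, from 0) of 8 genes in the 9 samples. Points are samples, and lines and bars the mean and SD of 3 samples. Ccne1, Cdkn2d, Mcm6, Rrm2, Ccnb1 and Mki67 step up from GFPlo to GFPmed to GFPhi with no overlap, Cdk6 steps down, and in Ccnd3 the GFPhi points lie above the rest.

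Of 3 inhibitors of cyclin-dependent kinases 2 rose and 0 fell, and both that rose belong to the INK4 family, which binds Cdk4 and Cdk6. Cdkn2d (p19 INK4d) had a TPM of 118, 131 and 149 in GFPlo, 165, 166 and 173 in GFPmed and 207, 257 and 199 in GFPhi, groups apart in every sample, with a log2 fold change of 0.73 ± 0.12 (SE, adjusted p = 0.0139). Cdkn2c (p18 INK4c), at or below the receptor background in 2 of 3 GFPlo samples, had a TPM of 3.25, 6.81 and 3.71 in GFPlo, 10.0, 7.15 and 7.48 in GFPmed and 9.23, 16.5 and 15.4 in GFPhi, and GFPhi and GFPmed overlapped, with a log2 fold change of 1.41 ± 0.31 (SE, adjusted p = 0.0492). Leaving out GFPlo replicate 2 took Cdkn2d over the threshold (adjusted p = 0.0613), and Cdkn2c held only without GFPlo replicate 2 or GFPhi replicate 1, with adjusted p up to 0.167 without the others. With median-of-ratios scaling the log2 fold change was 0.81 (adjusted p = 0.188) for Cdkn2d and 1.48 (adjusted p = 0.133) for Cdkn2c. Cdkn1a (p21), the p53-driven inhibitor, was near the floor, with 3 to 28 reads per sample and means of 2.56 ± 1.53, 0.979 ± 0.561 and 2.02 ± 0.886 TPM (SD, n = 3) in GFPlo, GFPmed and GFPhi. No difference was detectable at that depth, with a 95% interval of -1.18 to 0.86.

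Of Rb1 and its E2F partners, 1 of 3 rose. E2f2, an activator E2F, had a TPM of 5.67, 4.75 and 4.41 in GFPlo, 9.41, 7.72 and 6.01 in GFPmed and 9.99, 13.8 and 12.3 in GFPhi, 3 groups without overlap, with a log2 fold change of 1.13 ± 0.21 (SE, adjusted p = 0.0245). It lost the threshold without GFPlo replicate 2 (adjusted p = 0.0968), GFPlo replicate 3, GFPmed replicate 2, GFPhi replicate 2 or GFPhi replicate 3, and with median-of-ratios scaling (log2 fold change 1.21, adjusted p = 0.0659). E2f1, the other activator, went from a mean TPM of 5.29 ± 0.417 in GFPlo to 8.23 ± 0.55 in GFPmed and 9.64 ± 1.67 in GFPhi (SD, n = 3), with an adjusted p of 0.0581. It passed in 6 of 20 alternatives, among them without GFPhi replicate 1 (0.0419), without the eBayes trend (0.0477) and by limma-voom on library totals (0.0195) and on size factors (0.0308). The adjusted p was 0.189 with median-of-ratios scaling, 0.193 with quantile normalization and up to 0.198 with 1 sample left out. Rb1 TPM was 19.9, 22.9 and 21.7 in GFPlo, 21.4, 22.8 and 12.6 in GFPmed and 20.6, 27.6 and 20.7 in GFPhi. The groups overlapped, with 1 low GFPmed sample and a 95% interval of -0.44 to 0.60 for the log2 difference between GFPhi and GFPlo.

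Origin licensing, in which Cdc6 and Cdt1 place the Mcm2-7 ring on DNA, showed 4 of 9 genes up between GFPlo and GFPhi. Cdc6, the loader, changed most: its TPM was 2.67, 2.82 and 2.28 in GFPlo, 7.42, 4.55 and 5.85 in GFPmed and 10.7, 10.8 and 8.68 in GFPhi, groups apart, a 3.88-fold higher mean in GFPhi than in GFPlo, where it lay near background, with a log2 fold change of 1.62 ± 0.21 (SE, adjusted p = 0.00576). The ring holds 1 copy of each of 6 subunits, of which Mcm3, Mcm6 and Mcm7 rose and Mcm2, Mcm4 and Mcm5 did not pass. Mcm6 TPM was 34.9, 35.4 and 37 in GFPlo, 54.1, 41.1 and 45.3 in GFPmed and 55.1, 60.3 and 60.9 in GFPhi, with a log2 fold change of 0.70 ± 0.11 (SE, adjusted p = 0.0116). Mcm7 TPM was 182, 189 and 194 in GFPlo, 247, 237 and 232 in GFPmed and 252, 303 and 303 in GFPhi, with a log2 fold change of 0.60 ± 0.08 (SE, adjusted p = 0.00646). Both genes had 3 groups that did not overlap. Mcm3 TPM was 50.2, 52.8 and 54.4 in GFPlo, 80.9, 72.8 and 72.4 in GFPmed and 69.9, 106 and 92.8 in GFPhi, with a log2 fold change of 0.74 ± 0.14 (SE, adjusted p = 0.0301), with GFPhi and GFPmed overlapping. By contrast Mcm2 had means of 172 ± 5.74, 199 ± 20.9 and 173 ± 17.3 TPM (SD, n = 3) in the 3 groups, a log2 difference between GFPhi and GFPlo of 0.00 with a 95% interval of -0.23 to 0.23. Mcm4 was highest in GFPmed too, with means of 65.3 ± 1.7, 78.7 ± 8.15 and 75.1 ± 7.49 TPM, and Mcm5 climbed from 47.2 ± 1.82 to 63.9 ± 6.57 TPM (SD, n = 3, limma adjusted p = 0.068). Whether the subunits differed from each other in their change was not tested. After median-of-ratios scaling the log2 fold change was 0.82 for Mcm3 (adjusted p = 0.228), 0.78 for Mcm6 (adjusted p = 0.115) and 0.68 for Mcm7 (adjusted p = 0.194). Mcm6 also missed the threshold without GFPlo replicate 2 (0.0537) or GFPhi replicate 3 (0.0561), and Mcm3 held only without GFPhi replicate 1, with adjusted p up to 0.112 otherwise. Cdt1 and Gins2 did not pass (adjusted p = 0.194 and 0.239), and 67.3% of the exonic bases of Gins2 are shared with Gse1 on the other strand.

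Nucleotide supply and the replication fork showed 4 of 6 genes up. Rrm2, the regulated subunit of ribonucleotide reductase that cells make in S phase, had a TPM of 19.5, 22.5 and 25.3 in GFPlo, 68.4, 44 and 77 in GFPmed and 111, 172 and 136 in GFPhi. The 3 groups were apart and the mean was 6.22 times as high in GFPhi as in GFPlo, with a log2 fold change of 2.57 ± 0.23 (SE, adjusted p = 0.00113). Rrm1, the other subunit, also rose: its TPM was 61.7, 63 and 54.4 in GFPlo, 89.1, 71.9 and 78.2 in GFPmed and 88.7, 113 and 98.8 in GFPhi, with a log2 fold change of 0.73 ± 0.12 (SE, adjusted p = 0.0146). Per exonic kilobase Rrm1 went from 6.36 ± 0.514 to 10.8 ± 0.896 RPM and Rrm2 from 4.99 ± 0.62 to 31.2 ± 5.55 RPM (SD, n = 3). The order of the subunits turned on that scale, which used 11012 exonic bases for Rrm1 and 2771 for Rrm2. A shorter length for Rrm1 would raise its level, and other lengths were not tried. Tk1, the thymidine salvage kinase, also near background in GFPlo, had a TPM of 9.11, 4.32 and 6.15 in GFPlo, 15.3, 12.2 and 11 in GFPmed and 20.3, 23.7 and 30.5 in GFPhi, groups apart, with a log2 fold change of 1.81 ± 0.26 (SE, adjusted p = 0.00982). Tyms, which makes thymidylate, had a TPM of 16.6, 13.1 and 14.1 in GFPlo, 17.7, 16.7 and 17.4 in GFPmed and 22.4, 24.5 and 22 in GFPhi, also apart, with a log2 fold change of 0.62 ± 0.11 (SE, adjusted p = 0.025). Rrm1 missed the threshold without GFPlo replicate 3 (adjusted p = 0.0597) or GFPhi replicate 3 (0.0600), and Tyms held only without GFPlo replicate 1, with adjusted p up to 0.0996 otherwise. With median-of-ratios scaling the log2 fold change was 0.82 for Rrm1 (adjusted p = 0.111) and 0.70 for Tyms (adjusted p = 0.116). Pcna, the sliding clamp of the fork, did not pass: its TPM was 165, 180.4 and 181 in GFPlo, 208, 207 and 217 in GFPmed and 179, 205 and 220.2 in GFPhi, with a log2 difference of 0.19 (95% interval 0.00 to 0.38, adjusted p = 0.357), and Uhrf1, which carries DNA methylation through replication, had one of 0.34 (adjusted p = 0.299).

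E2F sites are a known feature of S-phase gene promoters, and the promoters of Mcm6 and Cdc6 are shown because these 2 genes rose and carry such letters. Of the 45 genes 38 matched the RefSeq promoter table (GRCm38.p6), which holds 250 bases before to 50 after each start site. The search took TTTCCCGC, TTTCGCGC, TTTGGCGC and TTTGCCGC as E2F elements and CCAAT as the CCAAT box, on both strands. E2F letters stood in 7 of 15 windows of S-phase genes (46.7%), 1 of 15 of mitotic genes (6.67%) and 2.26% of all 32851 windows. They stood in 14.3% of windows of the G1 regulators, 27.6% of other G1 and Rb-E2F genes and 25.5% of other S-phase genes. Mcm3, Mcm6, Mcm7 and Cdc6 carried them and rose, and Mcm5, Cdt1 and Uhrf1 carried them and did not pass. Rrm1, Rrm2, Tyms and Tk1 rose without them, and Mcm2 and Pcna had none and did not pass. Whether the letters go with the rise was not tested. CCAAT letters stood in 73.3% of the S-phase windows against 37.4% of all windows. The 150 bases before the start site follow, 5′ to 3′ on the strand of the gene, with matches in capitals. In Mcm6 one pair of E2F matches on opposite strands overlaps.
Mcm6 (chr1:128359706-128359855, minus strand): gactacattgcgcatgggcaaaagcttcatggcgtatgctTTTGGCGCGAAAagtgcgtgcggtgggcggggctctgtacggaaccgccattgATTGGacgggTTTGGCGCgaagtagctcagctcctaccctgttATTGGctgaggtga
Cdc6 (chr11:98908001-98908150, plus strand): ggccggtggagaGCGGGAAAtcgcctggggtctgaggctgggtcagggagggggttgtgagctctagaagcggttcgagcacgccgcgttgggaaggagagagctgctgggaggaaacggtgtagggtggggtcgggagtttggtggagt

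Mitotic cyclins and kinases showed 6 of 7 genes up between GFPlo and GFPhi, all 6 as DEG. Ccnb1, cyclin B1, the partner of Cdk1 at mitotic entry, had, with Ube2c, the largest log2 fold changes of the 45 genes, and these 2 lay within an SE of each other. Its TPM was 1.72, 4.57 and 1.21 in GFPlo, 12.2, 7.41 and 9.98 in GFPmed and 23.5, 34.9 and 25.6 in GFPhi. Every GFPhi sample exceeded every GFPmed sample and these every GFPlo sample, with a ratio of 11.2 in mean TPM, with a log2 fold change of 3.15 ± 0.36 (SE, adjusted p = 0.00331). The lowest sample held 8 reads of Ccnb1, so the base of that ratio is loosely known. Ccnb2, cyclin B2, was steadier within groups: its TPM was 1.71, 1.55 and 1.40 in GFPlo, 3.42, 3.39 and 3.36 in GFPmed and 7.55, 9.38 and 10.2 in GFPhi, with a log2 fold change of 1.97 ± 0.19 (SE, adjusted p = 0.0014). Ccna2, cyclin A2, of S phase and G2, had a TPM of 14.4, 21.7 and 21.7 in GFPlo, 40.9, 36.6 and 35.3 in GFPmed and 54.7, 66.4 and 76.8 in GFPhi, groups apart, with a log2 fold change of 1.74 ± 0.18 (SE, adjusted p = 0.00237). Exosc9 on the other strand shares 12.5% of its exonic bases. Cdk1, the kinase of these cyclins, had a TPM of 7.18, 7.56 and 6.27 in GFPlo, 8.78, 8.82 and 7.94 in GFPmed and 13.8, 16 and 17.1 in GFPhi, with a log2 fold change of 1.05 ± 0.14 (SE, adjusted p = 0.00681). Most of its change lay between GFPmed and GFPhi (0.80 ± 0.14, adjusted p = 0.0407), and the change from GFPlo to GFPhi was 0.99 on the log2 scale without GFPlo replicate 3 or GFPhi replicate 3.

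Of the kinases of the spindle and centrosome, Aurkb and Plk1 rose and Aurka did not pass. Aurkb, of the chromosomal passenger complex, had a TPM of 10.2, 7.73 and 3.96 in GFPlo, 16.1, 11.9 and 19 in GFPmed and 38.9, 38.9 and 44.2 in GFPhi, groups apart, with a log2 fold change of 2.40 ± 0.30 (SE, adjusted p = 0.00484). Plk1, polo-like kinase 1, had a TPM of 5.25, 7.24 and 6.59 in GFPlo, 14.7, 4.99 and 9.68 in GFPmed and 18.2, 29.7 and 24.3 in GFPhi, in which 1 GFPmed sample lay below all GFPlo samples, with a log2 fold change of 1.75 ± 0.35 (SE, adjusted p = 0.0353). Plk1 held only without GFPmed replicate 1 or GFPmed replicate 2, with adjusted p up to 0.120 otherwise, and its log2 fold change with median-of-ratios scaling was 1.82 (adjusted p = 0.0825), and with quantile normalization 1.79 (adjusted p = 0.0515). Aurka, the centrosomal Aurora kinase, had means of 3.49 ± 0.648, 4.61 ± 1.66 and 7.52 ± 1.2 TPM (SD, n = 3) and an adjusted p of 0.147. That was 0.0329 by limma-voom on library totals and 0.0139 on size factors, the 2 of 20 alternatives in which Aurka passed. With median-of-ratios scaling it was 0.286 and with quantile normalization 0.27.

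The spindle checkpoint, the anaphase-promoting complex (APC/C) and the kinetochore showed 6 of 7 genes up, all 6 as DEG. Cdc20, the APC/C activator that the checkpoint restrains, had a TPM of 6.30, 6.32 and 8.65 in GFPlo, 17.4, 14.8 and 15.9 in GFPmed and 26.6, 56.8 and 38.2 in GFPhi, groups apart, with a log2 fold change of 2.31 ± 0.26 (SE, adjusted p = 0.00309). Ube2c, the ubiquitin-conjugating enzyme of the APC/C, had a TPM of 0.641, 3.39 and 2.35 in GFPlo, 10.7, 5.07 and 10.4 in GFPmed and 14.8, 28.2 and 26.1 in GFPhi, with a log2 fold change of 3.01 ± 0.44 (SE, adjusted p = 0.0104). Its GFPlo level rested on 5 reads in the lowest sample, 22.8% of its exonic bases are shared with Tnnc2, and the adjusted p was 0.0507 without GFPhi replicate 3. Birc5 (survivin), of the passenger complex, had a TPM of 3.55, 4.37 and 4.14 in GFPlo, 11.8, 7.29 and 9.93 in GFPmed and 15, 30.2 and 22.1 in GFPhi, groups apart, with a log2 fold change of 2.17 ± 0.27 (SE, adjusted p = 0.00484). Both checkpoint kinases rose. Bub1 TPM was 4.97, 3.37 and 3.06 in GFPlo, 8.09, 4.84 and 6.05 in GFPmed and 10.2, 12.7 and 16.2 in GFPhi, with a log2 fold change of 1.55 ± 0.26 (SE, adjusted p = 0.0168), with 1 GFPmed sample inside the GFPlo range. Bub1b (BubR1) TPM was 6.58, 7.59 and 5.16 in GFPlo, 14.3, 8.48 and 10.3 in GFPmed and 17.9, 23.5 and 21.4 in GFPhi, groups apart, with a log2 fold change of 1.56 ± 0.22 (SE, adjusted p = 0.00832). Of the large kinetochore proteins, Cenpf had a TPM of 2.40, 1.04 and 1.40 in GFPlo, 4.04, 3.42 and 4.05 in GFPmed and 5.54, 8.91 and 9.88 in GFPhi, groups apart, with a log2 fold change of 1.80 ± 0.28 (SE, adjusted p = 0.0132). Cenpe, the kinetochore kinesin, had means of 4.0 ± 1.26, 5.29 ± 1.08 and 10.3 ± 2.53 TPM (SD, n = 3) and an adjusted p of 0.0558. It passed in 3 of 20 alternatives, among them limma-voom on library totals (0.00138) and on size factors (0.000102). With median-of-ratios scaling the adjusted p of Cenpe was 0.0864, and with 1 sample left out it was 0.0536 to 0.183. Bub1 missed the threshold without GFPlo replicate 2 (adjusted p = 0.0753), GFPlo replicate 3, GFPhi replicate 2 or GFPhi replicate 3, and Cenpf without GFPlo replicate 2, GFPlo replicate 3 or GFPhi replicate 3 (0.0601).

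All 3 genes of the mitotic chromosome and spindle rose. Mki67, which coats mitotic chromosomes and is the usual marker of cycling cells, had a TPM of 2.47, 3.62 and 3.29 in GFPlo, 13.3, 7.06 and 9.20 in GFPmed and 17.5, 25.9 and 21.3 in GFPhi. Its mean was 3.15 times GFPlo in GFPmed and 6.90 times in GFPhi, with no overlap, with a log2 fold change of 2.45 ± 0.25 (SE, adjusted p = 0.0021). Top2a, which untangles sister chromatids, had a TPM of 25.2, 30.8 and 33.1 in GFPlo, 79.4, 46.4 and 58.2 in GFPmed and 106, 143 and 139 in GFPhi, groups apart, with a log2 fold change of 2.08 ± 0.21 (SE, adjusted p = 0.00188). Kif11, the kinesin that pushes spindle poles apart, had a TPM of 3.96, 5.30 and 4.39 in GFPlo, 9.52, 6.59 and 8.18 in GFPmed and 13.1, 18.2 and 15.1 in GFPhi, groups apart, with a log2 fold change of 1.57 ± 0.20 (SE, adjusted p = 0.00498). These 3 calls held when each of the 9 samples was left out in turn. Of the 28 calls between GFPhi and GFPlo, 16 held in all 9 such fits and 12 were lost in at least 1.

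**Figure D4:**
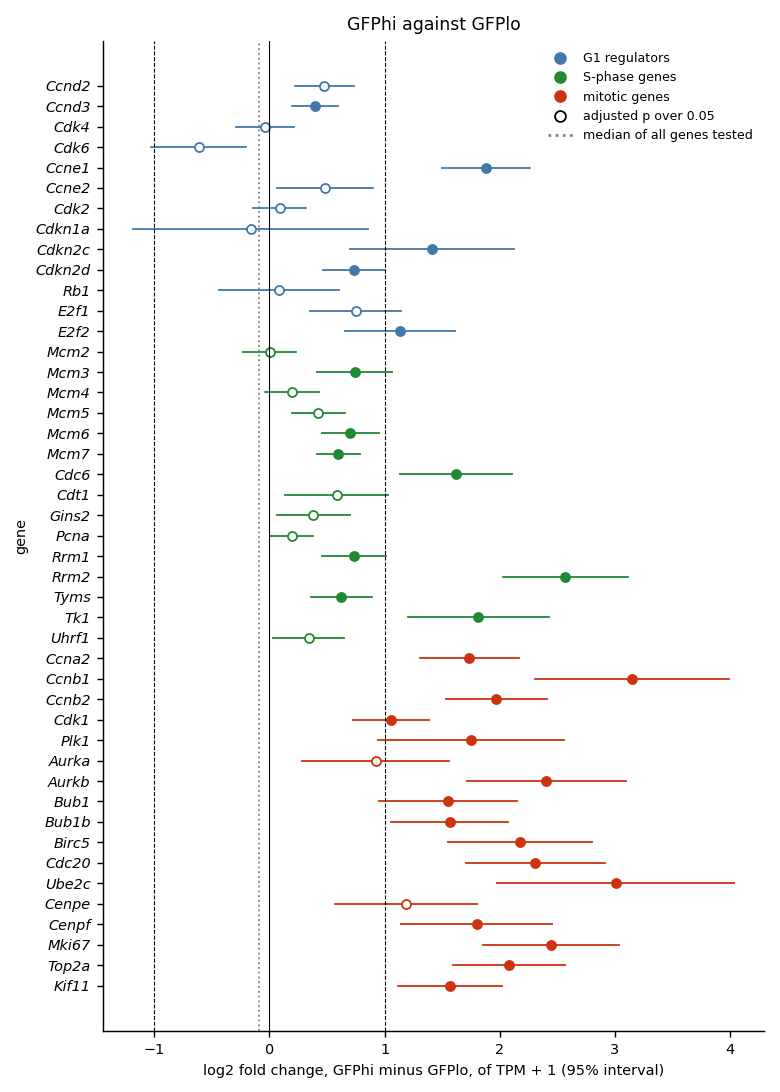
Log2 fold change of each of the 45 genes between GFPhi and GFPlo (horizontal axis, log2 of TPM + 1), with 95% intervals. Filled points have a limma adjusted p of at most 0.05, dashed lines mark an absolute value of 1 and the dotted line the median of all genes tested, -0.09. The 15 filled red points of the mitotic genes lie at 1.05 or more, whereas 7 of the filled blue and green points lie between 0 and 1.

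Mitotic genes commonly carry a CHR element (cell cycle genes homology region) near the start site, often with CCAAT boxes upstream, and 6 of the mitotic genes that rose are shown for those letters. TTTGAA, the CHR, stood on either strand in 11 of 15 windows of mitotic genes (73.3%), in 1 of 15 of S-phase genes (6.67%) and in 17.9% of all 32851 windows. CCAAT stood in 14 of the 15 mitotic windows (93.3%). Ccnb1, Bub1 and Birc5 rose with no CHR letters in their windows, and Birc5 had no CCAAT either. Aurka had CHR and CCAAT letters and did not pass, and Cenpe had no CHR letters and did not pass. Whether the letters go with the rise was not tested. In a list of 57 other G2 and M genes, CHR letters stood in 34 of 50 windows (68.0%). They stood in 34.5% of windows of other G1 and Rb-E2F genes, 17.0% of other S-phase genes and 7.14% of the G1 regulators. Capitals mark these CHR letters, the CCAAT box and the E2F letters above, or their reverse complements. The CHR nearest the start site lay 18 bases before it in Cdc20, 15 in Cdk1, 23 in Top2a, 19 in Kif11, 29 in Ube2c and 98 in Mki67. A match is a description of the letters only.
Cdc20 (chr4:118437344-118437493, minus strand): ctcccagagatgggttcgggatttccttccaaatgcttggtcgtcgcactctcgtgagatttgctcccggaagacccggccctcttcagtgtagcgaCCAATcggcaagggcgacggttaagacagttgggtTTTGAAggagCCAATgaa
Cdk1 (chr10:69352913-69353062, minus strand): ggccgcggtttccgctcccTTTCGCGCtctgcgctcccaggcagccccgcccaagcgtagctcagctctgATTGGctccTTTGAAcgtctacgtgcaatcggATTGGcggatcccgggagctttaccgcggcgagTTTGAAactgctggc
Top2a (chr11:99024190-99024339, minus strand): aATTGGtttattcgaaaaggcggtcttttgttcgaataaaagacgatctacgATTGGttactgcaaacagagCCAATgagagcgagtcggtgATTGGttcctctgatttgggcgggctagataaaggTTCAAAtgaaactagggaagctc
Kif11 (chr19:37376232-37376381, plus strand): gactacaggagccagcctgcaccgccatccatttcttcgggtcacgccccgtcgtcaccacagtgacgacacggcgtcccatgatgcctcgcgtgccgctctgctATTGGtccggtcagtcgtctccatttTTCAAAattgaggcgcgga
Ube2c (chr2:164769779-164769928, plus strand): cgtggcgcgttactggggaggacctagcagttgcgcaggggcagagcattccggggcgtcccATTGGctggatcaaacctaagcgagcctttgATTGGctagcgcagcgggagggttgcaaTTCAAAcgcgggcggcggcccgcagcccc
Mki67 (chr7:135716380-135716529, minus strand): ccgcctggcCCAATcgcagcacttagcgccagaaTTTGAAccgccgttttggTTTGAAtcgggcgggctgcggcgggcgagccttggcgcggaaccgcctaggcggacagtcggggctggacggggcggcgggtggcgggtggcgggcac

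The middle group showed how the change was spread along the GFP axis. In 22 of 45 genes GFPlo, GFPmed and GFPhi were ordered upward with no overlap between any of the groups, against 1.67% of all genes tested, and in 1 gene, Cdk6, downward, against 0.87%. Of the 22, 13 were mitotic, 6 of S phase and 3 of G1. Looking only at the outer groups, GFPhi lay wholly above GFPlo in 38 genes, against 8.26% of all genes, and wholly below in 1, against 9.92%. The exact permutation test of the slope across the groups, two-sided, gives its smallest p, 0.00119 (0.0469 adjusted over all genes tested), to any gene so ordered, and therefore only restates the order of these 23 genes. GFPmed had a mean between the other groups in 37 of 45 genes, and the share over all genes tested was not computed. In the 21 DEG, GFPmed had covered a median of 0.479 of the log2 distance from GFPlo to GFPhi (quartiles 0.433 and 0.548), and in all 387 genes higher by the same limits a median of 0.320 (quartiles 0.179 and 0.447). Both numbers describe genes chosen on the distance between the outer groups and were not compared by a test.

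Between GFPhi and GFPmed, 3 of 45 genes rose, Ccne1 (1.16), Ccnb2 (1.19 ± 0.19, adjusted p = 0.0262) and Cdk1 (0.80), against a background of 0.899% higher, and 0 fell, against 0.609% lower. Of these, Ccne1 and Ccnb2 were DEG, against 0.541% higher and 0.15% lower over all genes. At an unadjusted limma p under 0.05, 29 of 45 were higher and 0 lower, against 4.72% and 5.89% of all genes, and in 29 GFPhi lay wholly above GFPmed, against 7.11%, and in 0 wholly below, against 9.41%. The count of DEG was 0 without GFPmed replicate 2, GFPmed replicate 3, GFPhi replicate 2 or GFPhi replicate 3, 1 without GFPlo replicate 2 or GFPmed replicate 1, and 12 by limma-voom on library totals. Higher DEG over all genes numbered 166 as reported and 260 of 30522 in that limma-voom fit, and the median log2 fold change of the 45 genes was 0.61 and 0.66. With 1 sample left out, higher DEG over all genes numbered 79 to 160.

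Between GFPmed and GFPlo, 0 of 45 genes passed in limma, against 0.0717% of all genes higher (0.0554% as DEG) and 0.00326% lower. At an unadjusted p under 0.05, 29 of 45 were higher and 0 lower, against 2.73% and 1.93% of all genes, and limma-voom on reads called 3 as DEG with library totals and 5 with size factors, where 18 and 25 of 30522 genes were higher DEG. The median log2 fold change was 0.41 over the 45 genes and -0.005 over all genes tested. It was positive in 41 of 45, against 15051 of 30693 of all genes tested. In 32 genes GFPmed lay above GFPlo with no overlap, against 5.55% of all genes, and in 0 below it, against 4.7%. The largest differences were those of Ccnb1 (1.73 ± 0.36, adjusted p = 0.41), Ube2c (1.69 ± 0.44, adjusted p = 0.626) and Rrm2 (1.42 ± 0.23, adjusted p = 0.178).

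Within groups the samples were ordered alike over many mitotic genes. GFPhi replicate 1 was the lowest GFPhi sample in 15 of 17 mitotic genes, and GFPmed replicate 1 was the highest GFPmed sample in 14 of 17. Replicate 1 of each group also held the most reads on the receptor genes used as background, for example 4580 RPM in GFPhi replicate 1 against 2153 and 2683 in the other GFPhi samples. With replicate 1 of all 3 groups left out, which leaves 6 samples, 9 genes were DEG higher between GFPhi and GFPlo and 11 passed by adjusted p alone. Over all genes the higher DEG were then 155 of 27654, against 387 of 30693 with all samples, and the median log2 fold change of the 45 genes was 0.93, with 43 of 45 positive. The part of that background in the result was not tested.

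Other genes of the cycle were read in the same fit between GFPhi and GFPlo. Their lists were grouped by textbook role and chosen with earlier results of these data known. In that fit 2.38% of all genes tested rose and 1.51% fell, and 1.26% were higher and 0.404% lower as DEG. Of 27 other genes of G1 and of the Rb and E2F network that were tested, 1 rose (3.7%) and 0 fell, with a median log2 fold change of 0.04. That gene was E2f8, a late E2F repressor, with a TPM of 3.40, 3.01 and 2.97 in GFPlo, 7.03, 4.92 and 6.70 in GFPmed and 10.6, 13.8 and 10.5 in GFPhi, with a log2 fold change of 1.61 ± 0.19 (SE, adjusted p = 0.00432). Of 52 other S-phase genes 6 rose and 0 fell, with a median of 0.22, and 1 was a DEG, Pole, the leading-strand polymerase, with a log2 fold change of 1.14 ± 0.19 (SE, adjusted p = 0.0175). Of 57 other G2 and M genes 30 rose, 26 of them as DEG, and 2 fell, with a median of 0.97. The 5 largest rises among them were those of Smc4, Pbk, Foxm1, Ncapg and Spc25. Foxm1, the transcription factor of G2 and M genes, had a TPM of 5.60, 7.49 and 4.13 in GFPlo, 14.4, 14.5 and 10.1 in GFPmed and 22.9, 32.5 and 29.5 in GFPhi, with a log2 fold change of 2.14 ± 0.24 (SE, adjusted p = 0.00284). Spc25, of the Ndc80 kinetochore complex, had a log2 fold change of 1.95 ± 0.20 (SE, adjusted p = 0.0021), and Pbk, a mitotic kinase, had a log2 fold change of 2.43 ± 0.33 (SE, adjusted p = 0.00738). The p53 target genes, among them those that halt the cycle, had a median of 0.00 over 22 tested, with 0 DEG. Of them Fas (0.76 ± 0.13, adjusted p = 0.0175) and Ccng1 (0.32 ± 0.06, adjusted p = 0.0303) rose and Aen (-0.62 ± 0.13, adjusted p = 0.0392) fell, named here after their values were seen.

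**Figure D5:**
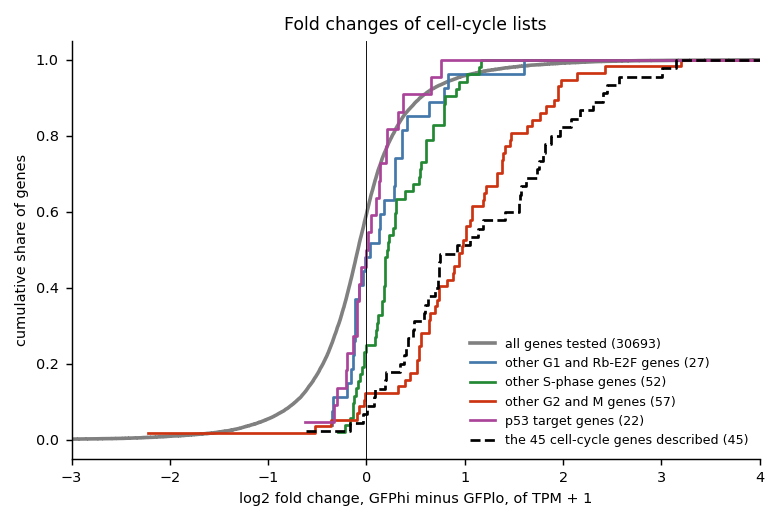
Cumulative share of genes (vertical axis) at or below each log2 fold change between GFPhi and GFPlo (horizontal axis, log2 of TPM + 1) for all 30693 genes tested, the 45 genes and 4 other lists. The curve of the other G2 and M genes (median 0.97) lies well to the right of all genes (median -0.09), that of the other S-phase genes (median 0.22) less so, and those of the other G1 genes and the p53 targets have medians of 0.04 and 0.00.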

How the data were processed

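Nur77-eGFP SP4 thymocytes were sorted by GFP into 3 groups of 3 samples, and libraries were made with SMART-seq v4 and Nextera XT. Per the labels and methods, the authors aligned reads with STAR 2.7.11b to GRCm38, removed duplicates, counted reads per gene and deposited TPM for each sample. A signal per group, which the authors made by dividing counts by DESeq2 1.34.0 size factors and averaging, was deposited beside it. The deposited fold changes, adjusted p-values and call columns of the authors were not used, and 0 sample columns were left unused. A count model does not suit TPM, so differences were tested with limma (version 3.58.1, R 4.3.3).

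The model was fitted to log2(TPM + 1) over all 9 samples, with a trend in eBayes, for the 30693 genes that reached 1 TPM in 3 or more samples, with Benjamini-Hochberg adjustment over all of them. A DEG had an adjusted p of at most 0.05 and a log2 fold change of 1 or more in either direction. Whole reads were solved from TPM and the group signal for 41578 of 41978 genes, with 100% of the values checked whole within 0.05, and 400 genes were left out of the alternatives on reads. Reads on genes ran from 7465552 to 14943774 per sample. The slope across groups was tested by exact permutation.

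The genes, the other lists and the tests were chosen with earlier results of these data known. Values in every sample are given for genes with an adjusted p of at most 0.05 in any pair of groups and, in each role, for the gene with the largest change and the gene with the highest TPM. Of the other lists, DEG are named, at most 5 in each direction per role. Alternatives were median-of-ratios and quantile scaling, 0.1 as pseudocount, all genes unfiltered, a filter at 5 TPM, no fold limit, only the 2 groups compared, no trend, a replicate block, limma-voom on the reads and each sample left out in turn. Limma-voom with size factors and leaving out replicate 1 of all groups were added after seeing the data. Samples with the same replicate number are not stated to share mice, and the check of whether they pair stands with the alternatives. Promoter sequences came from RefSeq (GRCm38.p6), and exon overlaps and lengths from a GENCODE release for that build that is older than the authors' own.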

Additional observations from a re-analysis of the deposited data

How the results depend on the processing

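The count of DEG higher in GFPhi than in GFPlo, 21 of 45, was 17 to 23 in the alternatives that kept all samples and the fold limit, and 14 to 20 with 1 sample left out, lowest without GFPhi replicate 3. Over all genes the higher DEG in those fits numbered 295 to 571 and 252 to 360. The count among the 45 was 9 without replicate 1 of all groups, an alternative chosen after seeing the data that leaves 2 samples per group. Over all genes the higher DEG then fell from 387 of 30693 to 155 of 27654, while the median log2 fold change of the 45 genes was 0.93 (0.92 as reported). Of the 28 genes that rose, 18 still passed with median-of-ratios scaling, 20 with only the 2 groups compared, 25 with quantile scaling and 27 to 28 by limma-voom. Of the 17 that did not pass, 6 passed by limma-voom with library totals and 4 with size factors. No gene was a lower DEG in any of these fits. The 2 DEG between GFPhi and GFPmed became 0 with median-of-ratios scaling, 1 with quantile normalization, 1 with only the 2 groups compared, 12 by limma-voom with library totals, 16 with size factors, 0 without replicate 1 and 0 to 3 with 1 sample left out. Higher DEG over all genes were 166 as reported, 86 with median-of-ratios scaling, 156 with quantile normalization, 133 with only the 2 groups, 260 and 294 by limma-voom and 13 without replicate 1, and the median log2 fold change of the 45 genes lay between 0.61 and 0.79 in these fits. With 1 sample left out that median ran from 0.44 (without GFPmed replicate 2) to 0.79 (without GFPmed replicate 1). Higher DEG over all genes then ran from 79 to 160. The count between GFPmed and GFPlo, 0, was 3 and 5 by limma-voom (18 and 25 of 30522 genes) and 0 with each sample left out. The causes were not tested.

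The replicate number as a block gave 18 DEG higher between GFPhi and GFPlo, 0 between GFPhi and GFPmed and 0 between GFPmed and GFPlo. Over all 30693 genes the higher DEG were then 346, 126 and 5. Once each group's mean was removed, pairs of samples with the same number had a mean correlation of 0.0609 (9 pairs, lowest 0.0122) and pairs with different numbers one of -0.0305 (18 pairs). All 9 same-number correlations were positive but most were under 0.1, so the block is given as an alternative, and whether the numbers mark shared mice or sort days is not known.

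Among single genes, 5 changed sign between GFPhi and GFPlo in some alternative, and none of the 5 had passed. Cdk4 went from -0.04 to 0.045 with median-of-ratios scaling and 0.064 by limma-voom with size factors, and Mcm2 to -0.032 with quantile normalization. Without replicate 1, Cdkn1a had 0.0062. With samples left out, Cdk4 ran from -0.17 to 0.035, Mcm2 from -0.071 to 0.082, Cdkn1a from -0.60 to 0.085, Cdk2 from -0.023 to 0.18 and Rb1 from -0.056 to 0.15. Depth limits Cdkn1a, Ube2c and Ccnb1, each with fewer than 10 reads in at least 1 sample.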

Other observations

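Among the other G2 and M genes, Smc4 and Kif23 stood apart from their partners. They follow the naming rule, and the partners were added after their values were seen. Smc4, an ATPase subunit of condensin, which compacts mitotic chromosomes, had a TPM of 39.7, 38.4 and 38.2 in GFPlo, 80.9, 74 and 85.3 in GFPmed and 335, 394 and 368 in GFPhi, with a log2 fold change of 3.20 ± 0.08 (SE, adjusted p = 6.59e-06), and it was also higher in GFPmed than in GFPlo (1.03 ± 0.08, adjusted p = 0.00912). Its ATPase partner Smc2 had a TPM of 13.9, 13.7 and 15.5 in GFPlo, 16.3, 15 and 13.7 in GFPmed and 15.6, 20.9 and 18 in GFPhi, with a log2 fold change of 0.32 ± 0.14 (SE, adjusted p = 0.362). The other subunits of condensin I had log2 fold changes of 0.52 ± 0.11 (Ncapd2, adjusted p = 0.0431), 1.98 ± 0.30 (Ncapg, adjusted p = 0.0115) and 0.64 ± 0.16 (Ncaph, adjusted p = 0.0846).

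Kif23, the motor of centralspindlin, which bundles the spindle midzone at cytokinesis, fell: its TPM was 106, 106 and 101 in GFPlo, 75.9, 70.1 and 61.8 in GFPmed and 17.9, 23.7 and 23.4 in GFPhi, with a log2 fold change of -2.22 ± 0.12 (SE, adjusted p = 0.000122). Racgap1, the other subunit of that complex, rose, with a TPM of 9.34, 6.90 and 7.23 in GFPlo, 14.3, 8.33 and 9.69 in GFPmed and 15.4, 16.4 and 18.4 in GFPhi, with a log2 fold change of 1.02 ± 0.21 (SE, adjusted p = 0.0411). The groups of Kif23 were apart in every sample, GFPhi below GFPmed below GFPlo. Of 57 other G2 and M genes, the second that fell was Cks1b, a Cdk subunit that also serves in the ubiquitin ligase of p27, by 0.53 on the log2 scale (adjusted p = 0.0372).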
